A study of Homo sapiens with 18 samples.

Results

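SUM225 xenografts of 10 weeks were compared with those of 6 weeks, by taking every array that GEO's labels give as SUM225 with either time, which was 6 of the 18 arrays in the series. The whole series followed 2 human cell lines, SUM225 and DCIS.COM, after their injection into the mammary ducts of mice (the mouse intraductal, or MIND, model), and measured RNA at 2, 6 and 10 weeks with 3 arrays per group. The mice were virgin female NOD-SCID IL2Rgamma-null (NSG) animals of 8 to 10 weeks at surgery, which lack a working adaptive immune system, and each replicate pooled the cells of 5 mice. Cells carrying EpCAM on their surface were sorted with magnets to part the human cells from those of the mouse gland. Neither group received any other treatment, so the groups differ by the time since injection, and each rests on 1 cell line. SUM225 lacks the estrogen and progesterone receptors and carries extra copies of HER2, whereas DCIS.COM lacks all 3. Labels call the arrays of a group biological replicates.

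Ductal carcinoma in situ (DCIS) is a growth of malignant epithelial cells that stays within the duct, behind the myoepithelial layer and the basement membrane, and invasive carcinoma begins when cells pass these layers. In the MIND model the injected cells first fill the mouse ducts and later break out of them, which SUM225 is described as doing later than DCIS.COM. The study also describes lesions as past these layers by 10 weeks, without parting the lines. The interval of 6 to 10 weeks may thus precede or include invasion in SUM225. Genes known for such a passage include those of Wnt signaling, of the epithelial-mesenchymal transition (EMT) and of the proteases that cut matrix. Cancer-testis genes are a set of genes, many of them on the X chromosome, whose RNA is made in germ cells, is kept silent by DNA methylation in most other tissues and appears in some tumors.

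Few probe sets passed the test used here between 6 and 10 weeks. By another method, significance analysis of microarrays (SAM), 191 passed at a false discovery rate under 5%. Of 54613 probe sets, 7 passed the test (adjusted p under 0.05, Benjamini-Hochberg over all of them, limma), of which 6 rose (0.011% of those tested) and 1 fell (0.00183%). The 6 that rose were TKTL1, 4 probe sets that the authors' tables assign only to members of the GAGE family, and 1 probe set with no entry in those tables. The 1 that fell was ART3. The number rested on single arrays: it was 2 without replicate 2 of 6 weeks, 17 without replicate 1 of 6 weeks and 38 without replicate 1 of 10 weeks. At an unadjusted p under 0.05 there were 2461 higher (4.51%) and 1480 lower (2.71%). The median probe set differed by -0.02 on the log2 scale and the 99th percentile of the absolute difference was 0.65, while the SD of a probe set among the 3 arrays of a group had a median of 0.13 at 6 weeks and 0.14 at 10 weeks. Arrays of the different weeks were nearly as alike (r of 0.987 to 0.994 over all probe sets) as arrays of the same week (0.99 to 0.994). All values below are log2 values from RMA, in which a difference of 1 is a doubling.

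Because the test passed so few, the late changes are also described by the separation of the arrays, meaning that all 3 arrays of 10 weeks lie above or all 3 lie below those of 6 weeks. Among all probe sets 2892 were separated upward (5.3%) and 3750 downward (6.87%). Separated and different by at least 2-fold were 75 upward (0.137%) and 14 downward (0.0256%). Without replicate 1 of 10 weeks both numbers came to 144 and 23, and without replicate 3 of 6 weeks to 141 and 16. Fewer arrays are easier to separate, so part of such a higher number is built in. Differences of this size were thus more often upward, although 57.4% of the 19108 genes with a symbol, each taken by its brightest probe set, were lower at 10 weeks. Symbols came only from the authors' lists of genes changed between 2 and 6 weeks, so these are not all genes on the array. Separation is a description without a p-value, since 3 arrays against 3 allow no exact permutation p under 0.1. A probe set without change separates in either direction with that probability of 0.1. Many separated probe sets are therefore expected without any change.

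**Figure D1:**
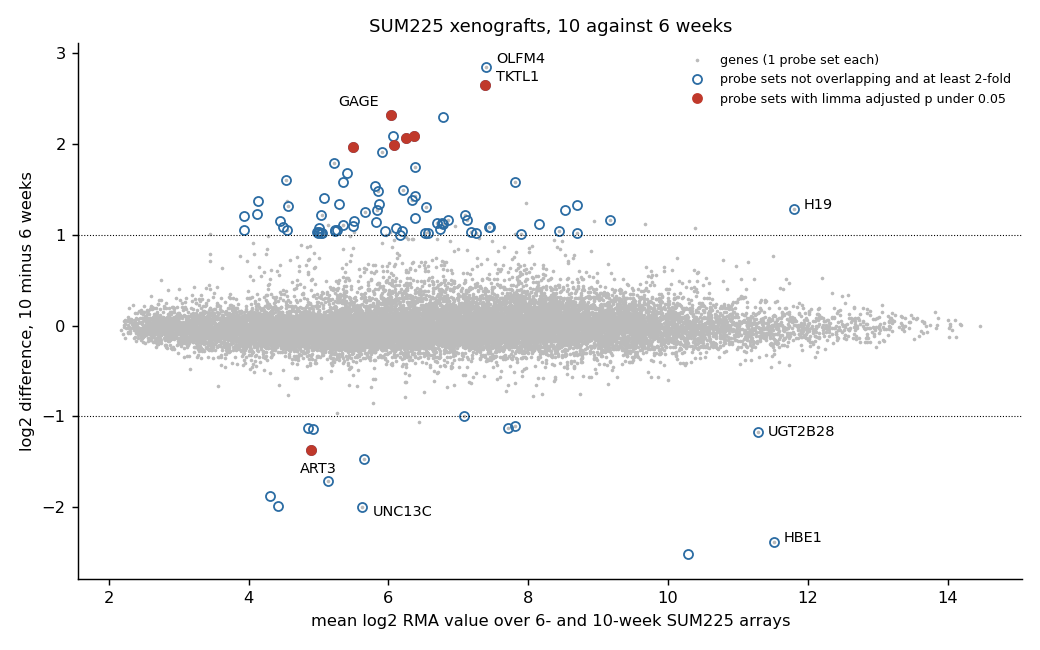
Log2 difference of 10 minus 6 weeks (y axis) against the mean log2 value over the 6 SUM225 arrays (x axis); gray points are the 19108 genes, open circles the 89 probe sets that were separated and at least 2-fold different, and filled circles the 7 that passed the test. The filled circles lie at 2.65 for TKTL1, between 1.97 and 2.32 for the GAGE family and the unnamed probe set, and at -1.37 for ART3.

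The promoters of the genes at the center of the late change are shown first, as RefSeq (GRCh38.p14) gives them, each from 250 bases before to 50 bases after a transcription start. They are shown because TKTL1 and GAGE genes are known as targets of DNA methylation, which acts at the 2-letter site CG, here in capitals. That site reads the same on both strands. TKTL1 has 2 starts in the table, at chrX:154295545-154295844 and chrX:154304920-154305219 (plus strand).

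TKTL1, first start: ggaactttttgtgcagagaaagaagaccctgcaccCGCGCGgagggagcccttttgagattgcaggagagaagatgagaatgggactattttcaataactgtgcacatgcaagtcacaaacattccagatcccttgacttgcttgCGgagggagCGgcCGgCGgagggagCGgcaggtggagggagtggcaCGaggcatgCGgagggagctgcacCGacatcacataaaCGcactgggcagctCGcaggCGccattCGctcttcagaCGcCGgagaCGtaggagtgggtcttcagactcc
TKTL1, second start: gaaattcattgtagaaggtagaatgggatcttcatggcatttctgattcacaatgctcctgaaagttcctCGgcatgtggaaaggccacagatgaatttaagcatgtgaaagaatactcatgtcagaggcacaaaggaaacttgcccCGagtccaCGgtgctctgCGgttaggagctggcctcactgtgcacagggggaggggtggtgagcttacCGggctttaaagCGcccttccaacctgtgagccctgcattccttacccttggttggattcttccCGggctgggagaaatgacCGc

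Of 13 GAGE promoters in the table, from 12 genes, 8 had the same letters over all 300 bases, and these are given by GAGE12F (chrX:49560592-49560891, plus strand).

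GAGE12F: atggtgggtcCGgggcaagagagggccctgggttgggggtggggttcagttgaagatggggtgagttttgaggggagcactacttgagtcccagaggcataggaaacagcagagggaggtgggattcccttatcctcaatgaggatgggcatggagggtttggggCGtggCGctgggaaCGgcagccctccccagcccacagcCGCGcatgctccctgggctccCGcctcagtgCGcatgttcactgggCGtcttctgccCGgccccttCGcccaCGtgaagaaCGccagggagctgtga

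ART3 also has 2 starts, at chr4:76010940-76011239 and chr4:76053866-76054165 (plus strand), and H19 has 1, at chr11:2001217-2001516 (minus strand).

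ART3, first start: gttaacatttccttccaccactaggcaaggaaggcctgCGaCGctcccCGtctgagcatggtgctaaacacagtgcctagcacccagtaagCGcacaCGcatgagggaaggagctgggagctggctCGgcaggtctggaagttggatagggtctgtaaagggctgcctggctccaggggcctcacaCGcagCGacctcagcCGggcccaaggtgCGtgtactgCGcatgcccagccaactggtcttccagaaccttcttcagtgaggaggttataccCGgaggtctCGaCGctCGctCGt
ART3, second start: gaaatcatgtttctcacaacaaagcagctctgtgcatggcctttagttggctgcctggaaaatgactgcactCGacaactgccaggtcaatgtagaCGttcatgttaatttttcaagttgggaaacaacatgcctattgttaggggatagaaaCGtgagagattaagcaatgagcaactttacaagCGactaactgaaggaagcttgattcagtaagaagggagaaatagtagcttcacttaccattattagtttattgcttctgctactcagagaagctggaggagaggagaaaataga
H19: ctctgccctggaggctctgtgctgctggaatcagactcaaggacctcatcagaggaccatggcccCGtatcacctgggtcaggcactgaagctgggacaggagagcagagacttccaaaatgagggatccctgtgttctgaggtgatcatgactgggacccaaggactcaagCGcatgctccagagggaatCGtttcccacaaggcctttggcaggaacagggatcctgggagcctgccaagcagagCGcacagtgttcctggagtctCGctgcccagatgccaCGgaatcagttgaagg

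The site CG occurs 18 times in the first TKTL1 promoter and 8 times in the second, 13 times in that of GAGE12F, 16 and 4 times in those of ART3 and 6 times in that of H19. Over the 35116 promoters of the table the median was 14, and 44.5%, 60.7%, 51.7%, 47.5%, 75.5% and 66.3% of them held at least as many. These counts describe the sequence only, since methylation was not measured.

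TKTL1, a transketolase-like gene on the X chromosome that is made in testis and in some tumors, showed the clearest late rise. Its values were 6.20, 5.78 and 6.21 at 6 weeks and 8.84, 8.73 and 8.58 at 10 weeks, and its lowest later array thus lay more than 2 above the highest of 6 weeks. The difference was 2.65 ± 0.14 (SE, n = 3 against 3), or 6.29-fold (adjusted p = 0.000713, limma). At 2 weeks the mean had been 4.98, so the mean of this TKTL1 probe set was lowest at the first time. The 2-week arrays were uneven, with EPCAM at 12.73, 11.72 and 8.59 (12.96 to 13.04 at 6 weeks). A lower mean at 2 weeks, here and below, cannot be told apart from that unevenness and was not tested. A second TKTL1 probe set went from a mean of 6.06 to 6.64 with separated arrays, a difference of 0.58 that did not pass (adjusted p = 0.343). On the 2-week arrays the mean of this second probe set had been 6.68.

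The GAGE genes lie next to each other on the X chromosome as near-identical copies, and most probes cannot tell them apart, so the family is described as 1 unit. GAGE proteins are made in germ cells and were first known as antigens of melanoma. Probe set 207739_s_at, which the authors' tables assign to GAGE genes alone (GAGE1, GAGE2A and GAGE12F among them), read 4.77, 4.71 and 5.14 at 6 weeks. At 10 weeks it read 7.12, 7.40 and 7.07, all well above the earlier arrays. The difference was 2.32 ± 0.15 (SE), or 5.01-fold (adjusted p = 0.00149, limma). The other 3 that passed were 208235_x_at, with a difference of 1.99 ± 0.16, 206640_x_at, with 2.09 ± 0.19, and 208155_x_at, with 1.97 ± 0.21 (adjusted p = 0.00624, 0.0163 and 0.0417). Without replicate 2 of 6 weeks these 3 and the unnamed probe set 207086_x_at no longer passed. On all 4 the second replicate of 10 weeks was the highest of the 6 arrays. These probe sets share targets and are not independent measurements of the rise. Probe set 207086_x_at, which has no gene in the authors' tables, had values from 4.98 to 5.42 at 6 weeks and from 7.10 to 7.50 at 10 weeks, a difference of 2.07 ± 0.15 (adjusted p = 0.00289).

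Other X-linked cancer-testis families moved unevenly. The families were gathered after the values had been seen, so their counts describe and do not test. They came to 62 probe sets, TKTL1 and GAGE included, of which 42 were higher and 20 lower at 10 weeks. Separated upward were 21 and downward 2, beside 5.3% and 6.87% of all probe sets. The 21 include the 6 GAGE and 2 TKTL1 probe sets given above or below. The median difference of the 62 was 0.08, beside -0.02 over all probe sets. Of the 6 GAGE probe sets all were separated upward, the smallest difference being 0.15 for a dim GAGE1 probe set. CT45A5, a testis antigen encoded in another X-linked cluster of copies, read 5.60, 5.23 and 5.55 at 6 weeks and 6.53, 7.17 and 7.17 at 10 weeks. Its arrays did not overlap, and the difference of 1.5 ± 0.19 just missed the threshold (adjusted p = 0.0575). A probe set shared by several CT45A genes and 1 uncharacterized gene went the same way, with a difference of 1.68 (adjusted p = 0.124).

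The SSX family are transcriptional repressors known from the gene fusion of synovial sarcoma. Its probe sets were separated upward in 5 of 12 cases and downward in none, beside 5.3% and 6.87% of all probe sets. Its brightest, shared by SSX4 and SSX4B, read 7.75, 7.39 and 7.65 at 6 weeks and 8.03, 9.02 and 9.10 at 10 weeks, a difference of 1.12 ± 0.26 (adjusted p = 0.285). SSX1 differed by 1.02 ± 0.25 (adjusted p = 0.334). In PAGE1 the difference was 0.68 and in SAGE1, which stayed dim, 0.79, with adjusted p of 0.42 and 0.305.

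Smaller differences were found in the MAGEA, CTAG and MAGEB families. MAGEA3, a melanoma antigen, read 13.22, 13.12 and 13.06 at 6 weeks and 13.10, 13.04 and 13.15 at 10 weeks. Its groups overlapped, with a difference of -0.04 ± 0.10. Over the 10 MAGEA probe sets the differences ran from -0.12 to 0.46, with 2 separated upward. The CTAG genes, which encode the antigen NY-ESO-1 and its relative, ran from -0.16 to 0.01 over 5 probe sets, none of them separated. In the MAGEB family 2 of 6 probe sets were separated downward, both below a level of 3. Over all probe sets 5.3% were separated upward and 6.87% downward.

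**Figure D2:**
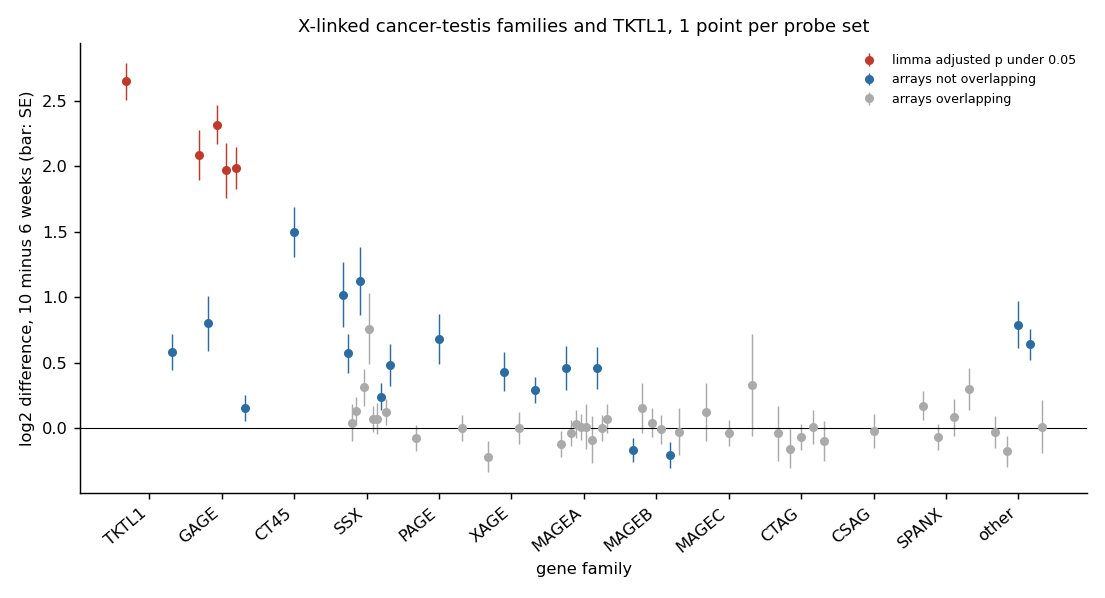
Log2 difference of 10 minus 6 weeks with its SE (y axis) for each of the 62 probe sets of X-linked cancer-testis families, grouped by family (x axis) and colored by whether the probe set passed the test or its arrays overlapped. TKTL1 and the GAGE family reach from 0.15 to 2.65, while the CTAG and MAGEA families lie between -0.16 and 0.46.

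ART3, which encodes a protein of the ADP-ribosyltransferase family that is anchored to the cell membrane, was the gene that fell. Its values were 5.54, 5.51 and 5.68 at 6 weeks and 4.22, 4.25 and 4.13 at 10 weeks, with little spread in either group. The fall was -1.37 ± 0.10 (SE), or 2.59-fold (adjusted p = 0.00289, limma). On the uneven 2-week arrays the mean had been 4.28, so the ART3 mean was highest at 6 weeks. Its level at 10 weeks was near the dim end of the array. Without replicate 2 of 6 weeks the call was lost (adjusted p = 0.055).

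UNC13C, whose product primes synaptic vesicles in neurons, was lower at 10 weeks by separation of its arrays but did not pass the test. Its brightest probe set read 6.46, 6.84 and 6.54 before and 4.37, 3.93 and 5.57 after. Both groups were apart although replicate 3 of 10 weeks lay over 1 above the other arrays of that week. The mean was 3.99-fold lower (SE of the log2 difference 0.35, adjusted p = 0.152). A pair of further probe sets gave -1.88 (adjusted p = 0.0504) and -1.99 (adjusted p = 0.0575), whereas the remaining one, which was dim, gave -0.11. On the uneven 2-week arrays the mean was 3.86, so that this gene, like ART3, had its highest mean at 6 weeks.

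BCHE, encoding butyrylcholinesterase, an enzyme that splits choline esters, read 6.41, 5.68 and 5.87 at 6 weeks and 3.97, 4.50 and 4.35 at 10 weeks. Its difference was -1.71 ± 0.20 and stood just outside the threshold (adjusted p = 0.0504). Other probe sets just outside were PELI1, a ubiquitin ligase of innate immune signaling, with 1.07, BCAT1, an enzyme of branched-chain amino acid breakdown, with 1.02, and ANKRD10, with 0.90 (adjusted p = 0.0504 for each). At an adjusted p under 0.1 the counts were 32 higher (0.0586%) and 9 lower (0.0165%).

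**Figure D3:**
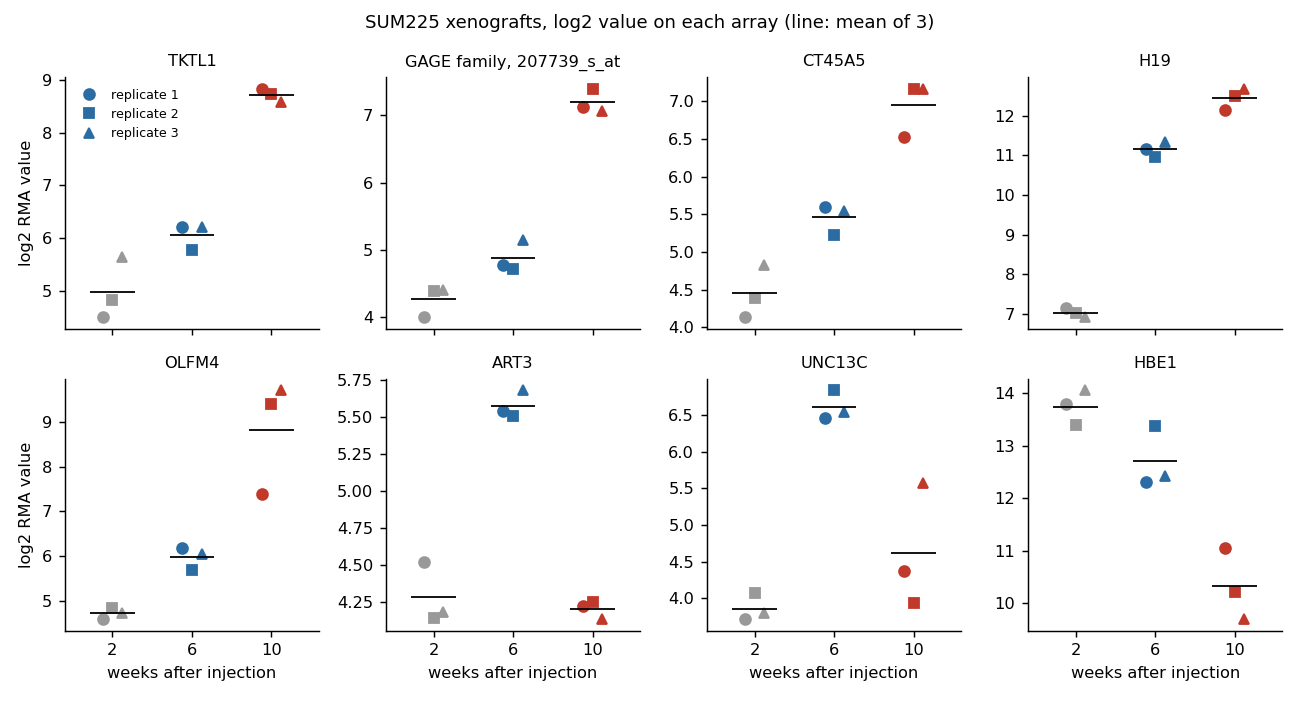
Log2 values of 8 genes on each SUM225 array (y axis, own scale in each panel) at 2, 6 and 10 weeks (x axis); symbols mark the replicate number, and lines the mean of 3 arrays. CT45A5, H19, OLFM4, the TKTL1 probe set that passed the test and GAGE probe set 207739_s_at have their lowest mean at 2 weeks and their highest at 10. Of the other GAGE probe sets that passed, 206640_x_at (5.36 at 2 weeks, 5.32 at 6) and 208155_x_at (4.81, 4.50) have their lowest mean at 6 weeks. For 208235_x_at (4.89, 5.08) the lowest mean is at 2 weeks. ART3 and UNC13C have their highest at 6 weeks, and HBE1 has its highest at 2 weeks. The 2-week arrays were uneven (EPCAM from 8.59 to 12.73).

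H19, a long non-coding RNA from an imprinted locus that is abundant in the fetus, was among the brightest RNAs with a late difference. It read 11.15, 10.96 and 11.34 at 6 weeks and 12.15, 12.49 and 12.68 at 10 weeks. Every later array was above every earlier one, by a mean of 1.29 ± 0.16 (adjusted p = 0.0535), and its second probe set gave 1.33 ± 0.23 (adjusted p = 0.146). On the uneven 2-week arrays the mean had been 7.03. PLAGL1, an imprinted zinc finger gene, had 3 probe sets with separated arrays and differences of 1.04, 0.57 and 1.03, none of which passed. NDN, also imprinted, differed by 0.66 (adjusted p = 0.188). Among the 59 probe sets of imprinted genes gathered after the values were seen, 10 were separated upward and 7 downward. The shares over all probe sets were 5.3% and 6.87%, and the median difference of the 59 was 0.01.

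OLFM4 had the largest difference among the 19108 genes. It encodes a secreted glycoprotein known as a marker of intestinal stem cells. It read 6.19, 5.69 and 6.04 at 6 weeks and 7.38, 9.40 and 9.71 at 10 weeks. All later arrays were higher, but replicate 1 was more than 2 below the others of that week, and the difference of 2.85 ± 0.50 (7.23-fold) did not pass (adjusted p = 0.162). INSM1, a transcription factor of neuroendocrine cells, had the same order of the 10-week arrays to a lesser degree, with 5.19, 4.59 and 5.07 at 6 weeks and 5.89, 6.81 and 7.87 at 10 weeks (difference 1.91 ± 0.41, adjusted p = 0.237). CHGB, encoding the granule protein secretogranin-1, read 6.75, 6.26 and 8.79 at 10 weeks against 5.98 to 6.24 at 6 weeks, so its arrays were separated, narrowly in replicate 2 and widely in replicate 3 (1.13 ± 0.52, adjusted p = 0.711). Of the 29 probe sets of neuroendocrine genes, named after their values were seen, 3 were separated upward and 2 downward. Over all probe sets these shares were 5.3% and 6.87%.

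SERPINB2, IL1RL1 and APOBEC3A were among the largest separated differences upward, and none passed. SERPINB2, an inhibitor of plasminogen activators, read 4.30, 4.34 and 4.34 at 6 weeks and 6.84, 5.63 and 5.88 at 10 weeks (1.79 ± 0.26, adjusted p = 0.0921). IL1RL1, the receptor for interleukin-33, differed by 1.75 ± 0.29 (adjusted p = 0.141) in 1 probe set, with 5.85, 5.48 and 5.21 before and 7.93, 6.62 and 7.23 after. The other 3 probe sets of IL1RL1 overlapped between weeks, with differences of -0.11, 0.09 and 0.18. In APOBEC3A, a cytidine deaminase induced by interferon, the values were 7.14, 7.18 and 6.73 and then 8.36, 8.07 and 9.37 (1.58 ± 0.29, adjusted p = 0.175). Among 26 chemokine and cytokine genes 1 was separated upward and 1 downward, beside 4.63% and 7.82% of all genes, and the median was 0.08.

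PLAU, the urokinase that SERPINB2 inhibits, differed by 1.01 ± 0.26, from 7.79, 7.34 and 7.06 to 8.94, 7.93 and 8.34 (adjusted p = 0.369), while its dimmer probe set overlapped at 0.26. The kallikreins KLK7, KLK6 and KLK11, secreted serine proteases, had separated arrays with differences of 0.69, 0.45 and 0.28, and a dimmer probe set of KLK7 gave 1.08 (adjusted p = 0.0687). Of all 19108 genes, each represented by 1 probe set, 0.00523% rose and 0.00523% fell by the test. None of the 33 protease and inhibitor genes passed, 4 were separated upward and 3 downward (4.63% and 7.82% of all genes), and their median was 0.07 beside -0.03 over all genes. MMP15, a membrane-bound metalloproteinase, was among those separated downward, at -0.28.

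The ligand and the decoy receptor of the RANK pathway, which governs bone resorption and mammary development, differed in opposite directions. TNFSF11, the ligand RANKL, read 7.04, 5.72 and 6.41 at 6 weeks and 5.63, 4.33 and 4.81 at the later time. These arrays were separated by less than the spread within each week, and the difference was -1.47 ± 0.37 (adjusted p = 0.354), while a second, dim probe set gave -0.03. TNFRSF11B, the decoy receptor osteoprotegerin, was dim throughout, at 3.80, 3.29 and 3.26 and then 4.92, 4.61 and 4.93 (1.37 ± 0.16, adjusted p = 0.0535).

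Further genes among the largest separated differences downward did not pass either. UGT2B28, which joins glucuronic acid to steroids, was bright at 6 weeks, at 11.75, 11.76 and 12.08, and read 10.59, 10.30 and 11.20 at 10 weeks (-1.17 ± 0.21, adjusted p = 0.168). BPIFB2, a secreted protein of the family that binds bacterial lipids, differed by -1.13 ± 0.21 (adjusted p = 0.175). SERPINA1, the plasma inhibitor alpha-1-antitrypsin, had little spread, at 8.48, 8.63 and 8.61 before and 7.92, 7.70 and 7.85 after (-0.75 ± 0.11, adjusted p = 0.0849), and its next brightest probe set gave -0.76. For PPARGC1A, a coactivator of mitochondrial genes, the difference was -0.79 ± 0.13 (adjusted p = 0.146). EPHX1, the microsomal epoxide hydrolase, went from values of 7.91 to 8.41 to values of 7.49 and 7.50 (-0.63 ± 0.13, adjusted p = 0.226).

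Globin probe sets named in the authors' tables numbered 19, and every one was lower at 10 weeks. Of them 9 are assigned to several genes, and some genes have more than 1 probe set, so they are not independent measurements. Of the 19 globin probe sets 11 were separated downward and none upward, beside 6.87% and 5.3% of all probe sets. They were counted after their values had been seen, and none passed the test. The median difference was -0.35. HBE1, the embryonic epsilon chain, read 12.31, 13.37 and 12.42 at 6 weeks and 11.05, 10.21 and 9.69 at 10 weeks on its bright probe set, a difference of -2.38 ± 0.36 or 5.22-fold (adjusted p = 0.109). Its other probe set was dim in both weeks (5.65 to 5.88) and differed by -0.06, so the pair of HBE1 probe sets disagree. Probe set 217572_at, unnamed in the authors' tables, had almost the same course as the bright one, from 11.08, 12.43 and 11.13 to 9.71, 8.86 and 8.53. HBB, the adult beta chain, read 8.31, 8.52 and 8.26 and then 7.42, 7.43 and 6.94 on its brightest probe set (-1.10 ± 0.15, adjusted p = 0.0739). Of 10 erythroid genes used to look for blood cells of the host, 8 were lower and 2 higher at 10 weeks. Separated downward were 3 (HBB, ALAS2 and EPB42), beside 7.82% of all genes, and the list median was -0.10. SLC4A1, the anion exchanger of red cells, differed by 0.20. The medians of this list per array ran from 5.39 to 5.54 at 6 weeks and from 5.21 to 5.38 at 10 weeks. The part of host blood cells in the globin values was not tested, nor was how far this human array reads mouse RNA.

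Genes that interferon induces were higher at 10 weeks in 36 of 38 cases, although 57.4% of all genes were lower. None passed the test, but 17 had an unadjusted p under 0.05 (3.83% of all genes, upward) and 13 were separated upward (4.63% of all genes), with a median of 0.34. IFI44L, a cytosolic protein of the antiviral response, led with 5.18, 5.52 and 6.24 at 6 weeks and 7.36, 7.27 and 6.45 at 10 weeks (1.38 ± 0.30, adjusted p = 0.24). SAMD9, which restrains poxviruses, differed by 0.81, XAF1, which promotes apoptosis, by 0.62 and IFI6 by 0.58. The level was not even within a week. Taken as the median deviation of the 38 genes from their own mean, replicates 1 to 3 of 6 weeks were at -0.01, -0.24 and -0.23 and those of 10 weeks at 0.42, 0.17 and -0.02, so that 1 array of 10 weeks lay no higher than the highest of 6 weeks.

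HLA class I and antigen processing genes showed 15 of 20 higher and a median of 0.26, with 4 separated upward and 2 downward (4.63% and 7.82% of all genes). B2M, the light chain of class I molecules, read 12.38, 12.44 and 12.39 and then 12.82, 12.74 and 12.66 (0.34 ± 0.10, adjusted p = 0.442). NLRC5, the transactivator of class I genes, differed by 0.45 and the peptidase ERAP2 by 0.67, both with separated arrays. PDIA3, a chaperone of class I assembly, went the other way at -0.41, with separated arrays. Without replicate 1 of 10 weeks the median of the list was 0.10, the lowest over the arrays left out. Of 18 leukocyte genes, used to look for host immune cells, 8 were higher and 10 lower at 10 weeks with a median of -0.02. The list's median per array ran from 5.16 to 5.47 at 6 weeks and from 5.19 to 5.24 at 10 weeks. PTPRC (CD45), present on all leukocytes, stayed between 3.94 and 4.24. The array is made for human RNA, so these values cannot show whether mouse leukocytes were present or changed.

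Cell division genes were lower without exception, although none passed the test. All 31 mitosis genes were lower at 10 weeks, beside 57.4% of all genes, with 8 separated downward (7.82% of all genes) and a median of -0.26. BIRC5, which guards chromosome segregation and is also a Wnt target, read 8.87, 8.82 and 8.69 and then 8.29, 8.23 and 8.45 (-0.47 ± 0.11, adjusted p = 0.286). AURKB, its partner kinase, differed by -0.38, the cyclin CCNB2 by -0.37 and the anaphase activator CDC20 by -0.35, each with separated arrays. MKI67, the antigen of the Ki-67 stain, was 8.02, 7.50 and 7.97 and then 7.22, 7.43 and 7.89, with overlap.

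All 32 genes of DNA replication were lower as well, with a median of -0.23 and 8 separated downward (7.82% of all genes). GINS1, part of the replicative helicase, read 8.51, 8.49 and 8.43 and then 8.06, 7.86 and 8.12 (-0.46 ± 0.11, adjusted p = 0.291). The thymidine kinase TK1 differed by -0.39 and RRM2, which makes deoxynucleotides, by -0.38. The arrays of 10 weeks were spread widely. The median deviation of the mitosis genes was -0.39 in replicate 1 of 10 weeks, -0.14 in replicate 2 and 0.12 in replicate 3, beside 0.17, -0.06 and 0.24 at 6 weeks, so the groups overlapped in this measure. The replication genes gave -0.20, -0.10 and -0.01 beside 0.26, 0.01 and 0.06, which barely parts the weeks, and without replicate 1 of 6 weeks their median difference was -0.13. In DCIS.COM, whose arrays are a separate set, 24 of the 31 mitosis genes and 27 of the 32 replication genes were also lower at 10 weeks. Their medians were -0.17 and -0.14, beside 9588 of 19108 genes lower and a median of 0.00 in that line. None of either list passed the test of a line difference in change (adjusted p = 1 for each), which does not show that the changes were alike.

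**Figure D4:**
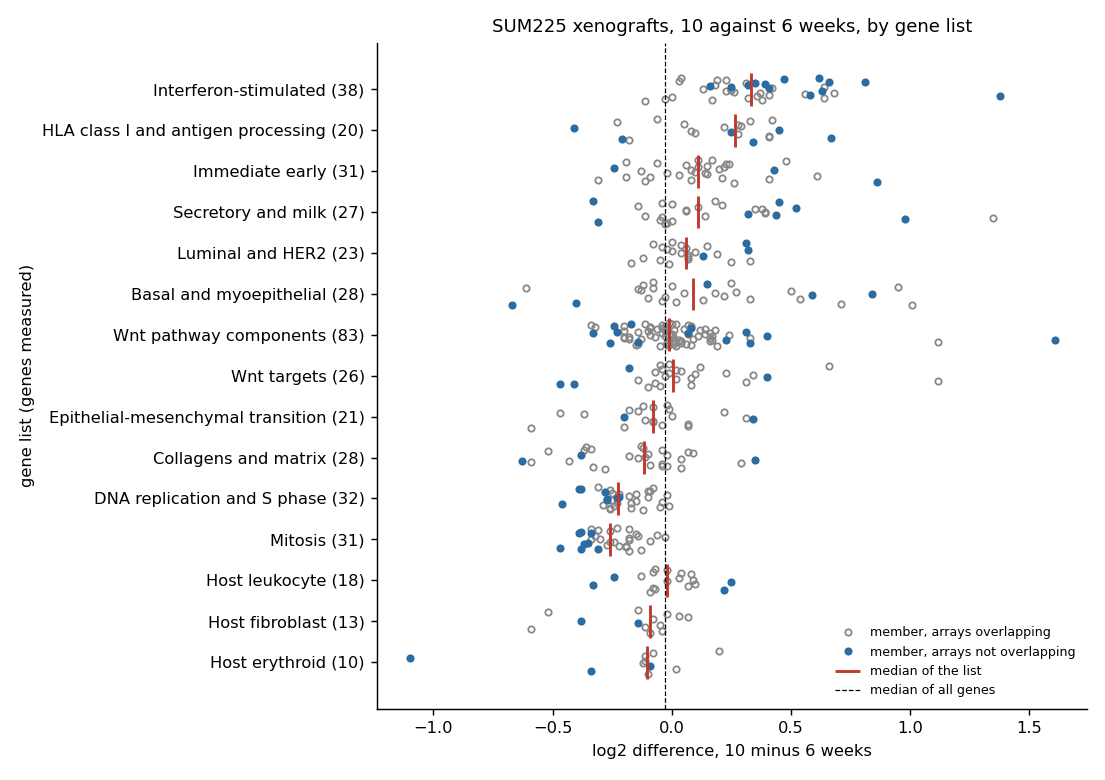
Log2 difference of 10 minus 6 weeks (x axis) for each measured gene of 15 lists (y axis, with the number of genes); filled points have separated arrays, red bars mark list medians and the dashed line the median of all genes, -0.03. Every mitosis and replication gene lies below 0 and 36 of the 38 interferon-stimulated genes lie above it, while the Wnt lists center on the dashed line.

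Wnt signaling passes from secreted WNT ligands through FZD receptors to beta-catenin, which with TCF/LEF factors, BCL9 and Pygopus turns on target genes. The 83 measured components showed 40 higher and 43 lower, with a median of -0.01, 7 separated upward and 6 downward (4.63% and 7.82% of all genes), and none passed. FZD10, a receptor, had the largest difference, from 4.01, 3.54 and 3.64 to 5.58, 4.48 and 5.95, all of them dim (1.61 ± 0.32, adjusted p = 0.196). The secreted inhibitor DKK1 was bright and spread, at 10.27, 8.74 and 8.31 and then 11.15, 9.73 and 9.79 (1.12 ± 0.51), and the groups overlapped. CTNNB1, encoding beta-catenin, differed by 0.33 and the factor LEF1 by 0.40, both with separated arrays and adjusted p of 0.47 and 0.446. Of the 26 Wnt targets 13 were higher and 13 lower, and the median was 0.00.

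BCL9, the beta-catenin coactivator on which the wider work centered, did not pass the test. It read 7.42, 7.27 and 7.30 before and 7.31, 7.32 and 7.31 after. Its groups overlapped, and the difference was -0.02 ± 0.10 (adjusted p = 0.985, limma; exact permutation p = 1, two-sided). Its homolog BCL9L differed by -0.15 ± 0.13 (exact permutation p = 0.3), and a second probe set by 0.02. ERBB2, the HER2 receptor, was at 12.62 ± 0.05 (SD, n = 3) and then 12.57 ± 0.10, and EPCAM, the antigen used for sorting, at 12.99 ± 0.04 and then 12.90 ± 0.11, so the antigen of the sort and the receptor of the line were bright on all 6 arrays. A dimmer ERBB2 probe set was separated upward, from a mean of 10.83 to 11.09 (0.25 ± 0.10, adjusted p = 0.624). For the brighter ERBB2 probe set and EPCAM, exact permutation p-values were 0.4 and 0.3, where 0.1 is the smallest possible.

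Luminal and HER2 genes were bright (23 of 23 with a mean over 6) and had a median difference of 0.06. Epithelial genes had 0.02 and basal and myoepithelial genes 0.09. Of the 28 basal and myoepithelial genes 3 were separated upward and 2 downward (4.63% and 7.82% of all genes). Among these KRT5 differed by 0.59 and the cadherin CDH3 by -0.40. In the basal list the keratin KRT6A went from a mean of 6.57 to 7.42 with arrays that were barely separated (adjusted p = 0.455), and ACTA2, the smooth muscle actin of myoepithelium, was 7.06, 7.10 and 7.36 and then 7.02, 6.12 and 6.38 (-0.67 ± 0.21, adjusted p = 0.489). Beyond that list KRT15, a basal keratin of stratified epithelium, differed by 1.09 ± 0.18 (adjusted p = 0.135) and KRT4, a mucosal keratin, by 1.16 ± 0.23 (adjusted p = 0.201). Of 28 keratin probe sets, gathered after the values were seen, 6 were separated upward and 1 downward. Over all probe sets these shares were 5.3% and 6.87%, and the keratin median was 0.10. For EMT genes the median was -0.08, with 5 of 21 higher. In that list 1 gene was separated upward and 1 downward (4.63% and 7.82% of all genes). SNAI1, a repressor of E-cadherin, was dim and separated downward at -0.20, and S100A4, a calcium-binding protein of motile cells, separated upward at 0.34. A dim FN1 probe set (fibronectin, means 4.71 and 5.75) was separated upward at 1.05 ± 0.21 (adjusted p = 0.188, limma). Collagens and matrix genes were lower in 22 of 28 cases with a median of -0.11, COL5A2 the most (-0.63 ± 0.17, adjusted p = 0.389), while host fibroblast markers were lower in 11 of 13 with a median of -0.09. The part of host fibroblasts in the collagen values was not tested, nor was how far this human array reads mouse RNA. Fewer cells of a kind and less RNA per cell cannot be told apart in such bulk samples.

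The protocadherin beta genes, a cluster of cell adhesion receptors best known from neurons, had 17 of 23 probe sets higher, with a median of 0.21. Separated upward were 7 and downward 1, beside 5.3% and 6.87% of all probe sets. They were counted after their values had been seen. PCDHB7 read 5.74, 5.53 and 6.40 and then 6.47, 7.52 and 7.61 (1.31 ± 0.31, adjusted p = 0.319), and PCDHB3, on a dim probe set, differed by 1.23 ± 0.16 (adjusted p = 0.0635), while its brighter probe set gave 0.12. The median deviation of the family was -0.10, -0.15 and -0.06 at 6 weeks and -0.08, 0.11 and 0.23 at 10 weeks, so replicate 1 of 10 weeks was at the level of 6 weeks.

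To compare the late change of SUM225 with that of the other line, the difference between the changes of the cell lines was tested over the 12 arrays of 6 and 10 weeks. It passed for 10 probe sets (0.0183% of 54613, limma interaction), with 1858 (3.4%) at an unadjusted p under 0.05, for 19 without replicate 1 of 10 weeks of SUM225, and for 3 with all 18 arrays in 1 fit. All 7 probe sets that passed in SUM225 were among the 10, a count that shares the SUM225 arrays with the first. For TKTL1 the change in DCIS.COM was -0.12, from a mean of 4.01, and for the 4 GAGE probe sets it lay between -0.16 and 0.01. ART3 differed by 0.01 in DCIS.COM, where it was dim at both times (means 3.61 and 3.62) and so had little room to be lower. In H19 the differences had opposite signs, with 1.29 ± 0.16 in SUM225 and -1.80 in DCIS.COM, where the mean went from 7.76 to 5.96 (adjusted p = 0.234 in that line). PROS1, the anticoagulant protein S, and NIBAN1, a stress-response gene, owed their place to DCIS.COM (1.42 and 2.36), with -0.09 and -0.07 in SUM225.

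**Figure D5:**
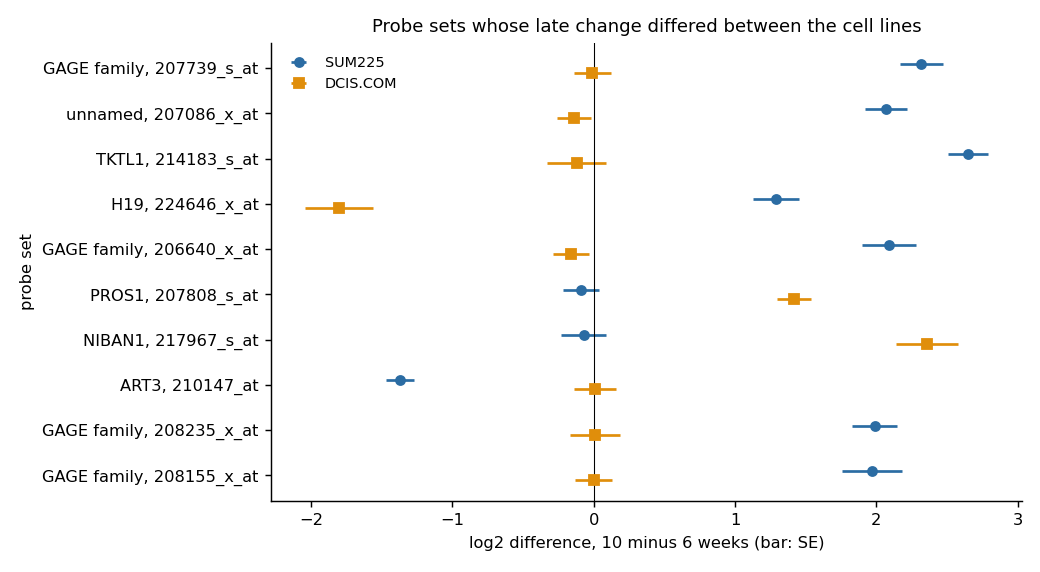
Log2 difference of 10 minus 6 weeks with its SE (x axis) in SUM225 (circles) and DCIS.COM (squares) for the 10 probe sets (y axis) whose change differed between the lines. SUM225 lies between 1.97 and 2.65 for TKTL1, the GAGE family and the unnamed probe set while DCIS.COM lies near 0, and H19 stands at 1.29 in SUM225 and -1.80 in DCIS.COM.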

How the data were processed

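RNA of sorted epithelial cells was hybridized to Affymetrix HG-U133 Plus 2.0 arrays. The deposited values are log2 intensities that the authors made with RMA in Partek, and no version or genome build is given in the sources used here. Gene symbols were joined by probe set from the gene-name column of 2 deposited tables (unit other), in which 36787 of 54613 probe sets had 1 symbol, 866 several, 51 a symbol turned into a date and 16909 no entry. These tables hold the authors' lists of genes that differed between 2 and 6 weeks, 1 list per cell line. The SUM225 list thus drew on the 6-week arrays used here. The 19108 genes and every share of all genes cover only probe sets on those lists. The fold changes and p-values in those tables hold the authors' comparisons and were not used. After 62 control probe sets were left out, limma 3.58.1 was fitted to 3 arrays against 3 without covariates. A gene was represented by its brightest probe set over the 6 arrays. Named were genes past the threshold, the 15 largest separated differences each way and up to 5 separated members per list at a mean of at least 6 in the higher group, and BCL9, BCL9L, EPCAM and ERBB2. Other genes, probe sets of genes with several, and the families of cancer-testis, imprinted, globin, protocadherin, keratin and neuroendocrine genes were chosen after their values were seen. The members and all 31 lists were chosen with earlier results of these data known. The fits were tested on simulated data. Array values carry no read depth, so the 3 arrays per group limit the precision, and since replicates are pools of 5 mice, spread between single mice was not measured. Alternatives were another centering, quantile normalization, all 18 arrays, a variance trend, array weights, a replicate block, SAM (20 permutations), a filter on dim probe sets, 1 probe set per gene and each array left out.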

Additional observations from a re-analysis of the deposited data

Results flagged for a closer look

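The change from 6 to 10 weeks differed between SUM225 and DCIS.COM by the interaction test (limma, adjusted p over 54613 probe sets) for 10 probe sets, and for 3 with all 18 arrays in 1 fit. PROS1 and NIBAN1, whose difference lay in DCIS.COM, are given above, and the other 8 follow. The change in SUM225 minus that in DCIS.COM was 3.09 on the log2 scale for H19 (adjusted p = 0.00293) and 2.77 for TKTL1 (adjusted p = 0.00247). Among GAGE probe sets it was 2.34 for 207739_s_at, 2.24 for 206640_x_at, 1.98 for 208235_x_at and 1.98 for 208155_x_at (adjusted p = 0.000594, 0.00548, 0.0205 and 0.0226). The unnamed 207086_x_at gave 2.21 (adjusted p = 0.000594). ART3 gave -1.39 (adjusted p = 0.0136), but was dim at both times in DCIS.COM. The second H19 probe set did not pass this test (adjusted p = 0.395).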

How the results depend on the processing

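The number of probe sets that passed was 7, and it was 17 with all 18 arrays in 1 fit, 22 with a variance trend and robust moderation, 29 with array weights and 191 by SAM at a false discovery rate under 5%. Leaving out 1 array gave 2 to 38. With the replicate number as a block it was 168. Deviations of same-numbered arrays correlated at 0.24, -0.04 and 0.14, and the highest value was between replicate 3 of 6 weeks and replicate 2 of 10 weeks (0.41). These values do not establish a pairing by number, and whether the numbers mark shared injections is not given in the sources used here. Of the 7 probe sets, 2 passed without replicate 2 of 6 weeks, 5 without replicate 3 of 10 weeks and 6 or 7 without any other array, and all 7 kept their sign in each case. Separated and at least 2-fold different were 76 to 167 probe sets with 1 array left out, and 89 with none. Separation is easier to reach with fewer arrays, so this range does not measure dependence on single arrays alone. The difference between the lines passed for 3 probe sets with all 18 arrays, and for 9 to 19 with 1 array left out. The BCL9 difference was -0.04 to 0.03 with 1 array left out and changed sign without replicate 1 of 6 weeks (0.03). Lists with a median above 0 numbered 13, and 10 to 16 with 1 array left out. Of 1599 further values for 141 named genes and lists, 1555 kept their direction and side of the threshold and 42 newly passed. Values near the dim end of the arrays understate differences.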

Other observations

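Over all genes 57.4% were lower at 10 weeks. Immediate early genes, which respond first to growth factors and stress, were higher in 22 of 31 cases with a median difference of 0.11, and none passed the test. Cytosolic ribosomal protein genes were higher in 45 of 53 with a median of 0.05, while genes of the respiratory chain were lower in 37 of 43 with a median of -0.07. Secreted and milk proteins had a median of 0.11, with 5 of 27 separated upward and 2 downward (4.63% and 7.82% of all genes). Of 67 probe sets for enzymes that conjugate steroids and drugs, gathered after the values were seen, 50 were lower at 10 weeks. Separated downward were 8 and upward 1, beside 6.87% and 5.3% of all probe sets, and the median was -0.07. Cholesterol synthesis genes were divided, with 12 higher and 12 lower.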
